A study of Mus musculus with 16 samples.

Results

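The genes described here are 46 genes of the cell cycle and of mitosis, out of 19937 genes with a probe set (the group of oligonucleotides that measures a transcript) naming no other gene. They come from a list of 48 genes chosen by name and not by a rule on measured values, though with earlier results of these data known. *Ccnb1*, which no probe set in the annotation used here names, and *Cdkn1a*, whose probe set also names *4930567H12Rik*, were not analysed here. The values are log2 expression in single whole hearts of C57BL/6 embryos on Affymetrix Mouse Gene 1.0 ST arrays, 16 arrays in all. The groups are *Chd7* fl/fl;*Mesp1-Cre* hearts at E13.5, control hearts at E13.5, *Chd7* fl/fl;*Mesp1-Cre* hearts at E11.5 and control hearts at E11.5, with 4 hearts each. They are called mutant and control below. *Mesp1-Cre* removes the floxed alleles of *Chd7*, a gene for a chromatin remodeller, in the anterior mesoderm and its descendants, so cells of another origin, such as those of the neural crest, keep them. The methods of the study give the controls as *Chd7*+/+;*Mesp1-Cre*, while the labels write WT and describe a mating in which every embryo inherits at least 1 floxed allele, so that it is not settled whether the controls carried Cre or a floxed allele. Fewer cells of a type and less RNA per cell cannot be told apart in whole hearts.

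The cell cycle alternates DNA replication with mitosis, and most of its genes are transcribed only in the part of the cycle that needs them. D-type cyclins with CDK4 or CDK6, and E-type cyclins with CDK2, inactivate the retinoblastoma protein and so free E2F factors, which drive the genes of DNA replication. Later in the cycle MYBL2 and FOXM1, together with the MuvB complex, drive the genes of mitosis. In the embryonic heart, cardiomyocytes divide while they contract, and most leave the cycle around birth.

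Promoters are shown first, because the waves of cell cycle transcription are tied to short words near the start site, and genes with the same words did not all change alike. From 250 bases before to 50 bases after the start, RefSeq sequence on GRCm38.p6 could be matched for 35 of the 46 genes and for 27025 genes in all. Searched on both strands were the CHR (cell cycle genes homology region, TTTGAA), the CCAAT box (CCAAT) and the E2F words TTTCCCGC, TTTCGCGC, TTTGCCGC and TTTGGCGC. Matches are in capitals, and E2F matches that overlap each other form 1 longer run. *Cdk1* (chr10:69352863-69353162, minus strand) and *Kif11* (chr19:37376132-37376431, plus strand) are genes of mitosis that rose at E13.5 over E11.5 in both genotypes. *Plk1* (chr7:122159185-122159484, plus strand) and *Mki67* (chr7:135716330-135716629, minus strand) also hold a CHR and a CCAAT box and did not pass the test with the deposited values in either genotype. *Mcm5* (chr8:75109259-75109558, plus strand) and *Mcm6* (chr1:128359656-128359955, minus strand) are subunits of 1 helicase whose log2 FC between the stages had opposite signs.
Cdk1: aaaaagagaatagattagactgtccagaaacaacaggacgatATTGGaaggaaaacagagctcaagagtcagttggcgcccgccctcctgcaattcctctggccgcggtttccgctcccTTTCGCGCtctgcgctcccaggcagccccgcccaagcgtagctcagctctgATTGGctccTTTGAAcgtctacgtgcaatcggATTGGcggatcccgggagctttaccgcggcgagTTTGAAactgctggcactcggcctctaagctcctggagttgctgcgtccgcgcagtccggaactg
Kif11: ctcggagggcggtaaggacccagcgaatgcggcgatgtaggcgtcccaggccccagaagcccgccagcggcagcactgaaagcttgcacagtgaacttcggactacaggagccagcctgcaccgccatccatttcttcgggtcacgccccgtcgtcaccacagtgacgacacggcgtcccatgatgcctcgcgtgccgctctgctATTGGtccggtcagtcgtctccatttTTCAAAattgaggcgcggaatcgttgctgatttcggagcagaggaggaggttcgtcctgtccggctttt
Plk1: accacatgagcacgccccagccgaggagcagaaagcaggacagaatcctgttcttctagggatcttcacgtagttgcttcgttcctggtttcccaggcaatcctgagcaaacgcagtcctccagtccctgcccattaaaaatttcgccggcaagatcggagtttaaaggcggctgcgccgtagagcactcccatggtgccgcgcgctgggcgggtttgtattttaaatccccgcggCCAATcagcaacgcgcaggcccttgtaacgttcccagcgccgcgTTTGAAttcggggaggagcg
Mki67: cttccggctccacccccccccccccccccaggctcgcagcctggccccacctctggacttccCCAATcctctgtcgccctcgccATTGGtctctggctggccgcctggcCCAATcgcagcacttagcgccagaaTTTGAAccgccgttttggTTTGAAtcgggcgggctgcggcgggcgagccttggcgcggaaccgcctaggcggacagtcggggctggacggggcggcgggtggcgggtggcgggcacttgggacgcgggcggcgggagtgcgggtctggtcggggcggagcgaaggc
Mcm5: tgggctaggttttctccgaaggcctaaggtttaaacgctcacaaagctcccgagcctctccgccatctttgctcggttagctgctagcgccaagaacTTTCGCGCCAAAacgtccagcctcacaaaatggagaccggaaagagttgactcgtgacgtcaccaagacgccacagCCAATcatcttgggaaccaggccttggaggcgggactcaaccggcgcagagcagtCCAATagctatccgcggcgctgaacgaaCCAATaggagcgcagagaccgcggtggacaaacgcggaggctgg
Mcm6: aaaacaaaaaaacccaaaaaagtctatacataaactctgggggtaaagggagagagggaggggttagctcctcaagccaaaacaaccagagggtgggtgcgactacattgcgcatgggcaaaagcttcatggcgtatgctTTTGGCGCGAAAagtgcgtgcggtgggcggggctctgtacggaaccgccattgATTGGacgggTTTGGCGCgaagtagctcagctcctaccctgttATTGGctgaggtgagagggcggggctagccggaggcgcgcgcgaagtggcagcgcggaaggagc
The CHR and the CCAAT box stood together in 75% of the promoters of 16 mitosis genes, against 9.09% of 11 replication and nucleotide genes and 7.12% of all promoters. A CHR was in 18.1% and a CCAAT box in 37.9% of all promoters. An E2F word stood in 6.25% of the mitosis genes and 54.5% of the replication and nucleotide genes, and in 2.32% of all promoters. A match describes these letters only, and is not a site of binding.

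*Chd7* itself lay between 8.88 and 9.07 in mutant hearts, against 9.83 to 10.30 in control hearts, at E13.5 (log2 FC −1.08, limma adjusted p = 0.0209). At E11.5 it lay between 9.16 and 9.73 in mutant hearts, against 10.64 to 10.89 in control hearts (log2 FC −1.29, adjusted p = 0.00132). These values are from the *Chd7* probe set with the highest mean, and the study reported a larger loss of *Chd7* at both stages. The troponin gene *Tnnt2*, a defining marker of cardiomyocytes, lay between 13.20 and 13.79 in every heart. The median of 3 Y-linked genes ranged from 4.32 to 9.56 in mutant and from 4.03 to 9.21 in control hearts at E13.5, and from 4.64 to 8.46 in mutant hearts at E11.5, but from 8.26 to 9.18 in control hearts at E11.5. All control hearts at E11.5 thus read as male, while the other groups were mixed. Sex is therefore not balanced in the E11.5 genotype comparison or in the stage comparison of control hearts. The mean of this median was 5.67 in mutant and 6.97 in control hearts at E13.5, and 6.67 in mutant hearts at E11.5. Balance in the other comparisons is therefore not shown either, and the part of sex was not tested. The median over the macrophage list (10 genes) ranged from 8.16 to 8.84 in mutant and from 8.22 to 8.34 in control hearts at E13.5. At E11.5 it ranged from 6.91 to 8.05 in mutant and from 7.07 to 7.45 in control hearts. For the erythroid list (10 of 12 genes measured) the median ranged from 10.36 to 10.72 in mutant and from 10.48 to 11.41 in control hearts at E13.5. At E11.5 it ranged from 10.41 to 11.02 in mutant and from 10.23 to 11.54 in control hearts. The epicardium list (8 genes) ranged from 9.82 to 10.78 in mutant and from 9.57 to 9.94 in control hearts at E13.5. At E11.5 it ranged from 9.76 to 10.35 in mutant and from 9.57 to 9.78 in control hearts. For the cardiomyocyte list (15 genes) the median was 13.08 to 13.13 in mutant and 13.06 to 13.18 in control hearts at E13.5. It was 12.69 to 12.82 in mutant and 12.79 to 12.91 in control hearts at E11.5. The part of these cell types in the results below was not tested. In 3 hearts more than 20 genes lay over 1 log2 unit outside all other hearts of the stage. They are control E13.5 replicate 1, with 22 such genes, and mutant E11.5 replicates 3 and 4, with 30 and 43.

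One property of the arrays touches every comparison of the stages. The spread of the values within an array was wider at E13.5, with an SD of 2.38 to 2.42, against 2.18 to 2.26 at E11.5. Over all genes, bright probe sets were shifted up and dim ones down at E13.5. In control hearts the median log2 FC between the stages (E13.5 minus E11.5, as throughout) was −0.33 over genes with a mean under 6, −0.02 from 6 to 8, 0.23 from 8 to 10 and 0.30 from 10 to 12. The 46 cell cycle genes have means from 8.23 to 13.02, in the shifted upper part. Over all 8555 genes in that range the median was 0.27 in mutant and 0.26 in control hearts, and 0.05 in both after quantile normalisation of the 16 arrays, which gives them a common distribution. For each of the 46 genes the quantile-normalised stage change is therefore given too, beside the deposited one or at the end of its role.

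**Figure D1:**
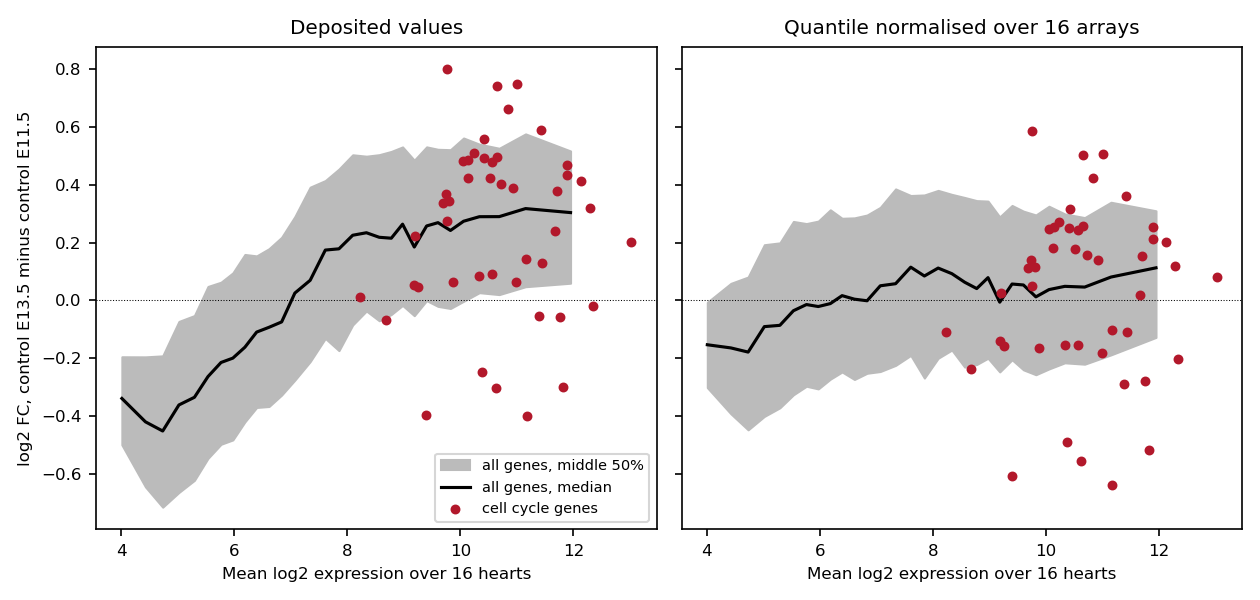
Change between the stages in control hearts (log2 FC, E13.5 minus E11.5) against mean log2 expression over 16 hearts, for deposited values (left) and after quantile normalisation (right). The line is the median and the band the middle 50% of all genes in 30 bins of level, and each red point is a cell cycle gene. The line climbs with level on the left and much less on the right, and the median of the cell cycle genes is 0.33 on the left and 0.11 on the right.

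As a group the cell cycle genes were shifted up at E13.5 by about as much as other genes of like brightness. Their median log2 FC was 0.30 in mutant hearts and 0.33 in control hearts, and 0.06 in mutant and 0.11 in control hearts after quantile normalisation, beside 0.04 in both genotypes over all 19937 genes (0.01 in both after quantile normalisation). A gene was called where the adjusted p was under 0.05 and the log2 FC over 0.5 in size. In mutant hearts 11 of 46 (23.9%) were called higher and 0 lower, where 16.8% and 12.8% of all genes were. In control hearts 7 of 46 (15.2%) were called higher and 0 lower, beside 16.5% and 12.3% of all genes, where the 7 rest in part on 1 heart, since 15 of 46 were called higher without control E11.5 replicate 4. With no threshold on the fold change, 24 were higher and 2 lower in mutant hearts (26.9% and 17.4% of all genes), and 23 were higher and 3 lower in control hearts (26.4% and 16.7%). After quantile normalisation 4 were called higher and 3 lower in mutant hearts (11.6% and 9.73% of all genes), and 3 higher and 4 lower in control hearts (11.4% and 9.56%). The direction was the same under 4 scalings (deposited, quantile, cyclic loess and median-centred) and in both genotypes for 30 genes, of which 23 were higher and 7 lower at E13.5, while 16 changed sign with the scaling or the genotype.

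**Figure D2:**
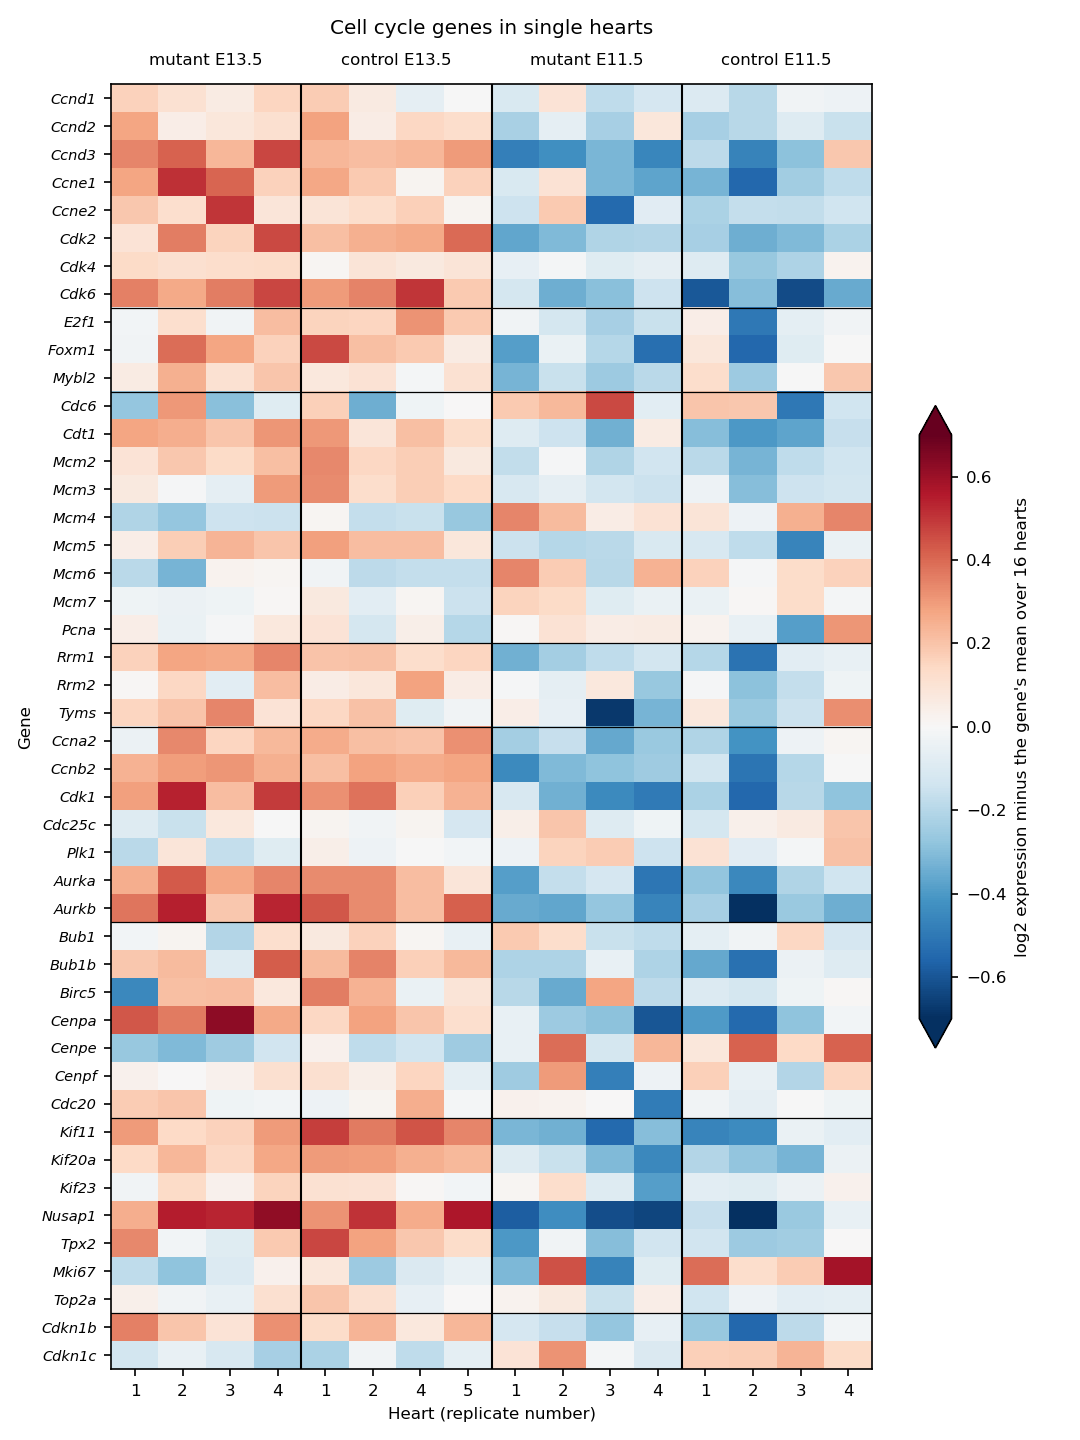
Log2 expression of the 46 genes in each of 16 hearts, minus the gene's mean over all hearts, with genes in order of role and horizontal lines between roles. Numbers under the columns are the replicate numbers. The rows of *Nusap1*, *Aurkb*, *Cdk1* and *Cdk6* are red at E13.5 and blue at E11.5, and those of *Mcm4*, *Mcm6* and *Cenpe* mostly run the other way.

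Cyclins and kinases of G1 phase were shifted together. All 8 had a positive log2 FC in both genotypes, with a median of 0.44 in mutant and 0.38 in control hearts (0.20 in mutant and 0.17 in control hearts after quantile normalisation, where *Ccnd1* turned negative in both genotypes, as *Cdk4* did after cyclic loess normalisation). In mutant hearts *Ccnd3*, *Ccne1*, *Cdk2* and *Cdk6* rose, and in control hearts *Cdk2* and *Cdk6*. *Cdk6*, a partner of the D-type cyclins, was at 10.12, 10.03, 10.12 and 10.23 at E13.5, against 9.64, 9.42, 9.47 and 9.62 at E11.5, in mutant hearts. In control hearts *Cdk6* was at 10.06, 10.11, 10.26 and 9.95 at E13.5, against 9.17, 9.47, 9.14 and 9.41 at E11.5. The stages did not overlap in either genotype. Its log2 FC was 0.59 ± 0.10 (SE) in mutant hearts (adjusted p = 0.000432, quantile-normalised 0.35) and 0.80 ± 0.10 in control hearts (adjusted p = 3.46e-05, quantile-normalised 0.58). *Cdk2*, the partner of the E-type cyclins, was at 10.51, 10.78, 10.58 and 10.88 at E13.5, against 10.06, 10.11, 10.21 and 10.22 at E11.5, in mutant hearts. In control hearts *Cdk2* was at 10.63, 10.67, 10.68 and 10.82 at E13.5, against 10.19, 10.08, 10.11 and 10.20 at E11.5. The stages were apart in both genotypes, with a log2 FC of 0.54 ± 0.10 in mutant (adjusted p = 0.00043) and 0.56 ± 0.10 in control hearts (adjusted p = 0.000333), and of 0.29 in mutant and 0.32 in control hearts after quantile normalisation. *Ccnd3*, for the D-type cyclin D3, was at 12.23, 12.30, 12.12 and 12.36 at E13.5, against 11.41, 11.46, 11.57 and 11.44 at E11.5, in mutant hearts. In control hearts *Ccnd3* was at 12.12, 12.11, 12.12 and 12.19 at E13.5, against 11.71, 11.42, 11.60 and 12.08 at E11.5. All E11.5 hearts were below the E13.5 ones, with control E11.5 replicate 4 the closest to them. The log2 FC of *Ccnd3* was 0.79 ± 0.12 in mutant hearts (adjusted p = 0.000113, quantile-normalised 0.58) and 0.43 ± 0.12 in control hearts, where it did not reach the threshold of 0.5 (adjusted p = 0.00858, quantile-normalised 0.21). Without control E11.5 replicate 4 it was 0.56. The difference between these stage changes was 0.35 ± 0.17 and did not pass the test of the difference (adjusted p = 1.00). *Ccne1*, for cyclin E1, rose in mutant hearts by 0.51 ± 0.12 (adjusted p = 0.00381, quantile-normalised 0.27) and stood at 0.48 ± 0.12 in control hearts (adjusted p = 0.00568, quantile-normalised 0.25), so that only the threshold of 0.5 separates the genotypes. *Ccnd1* (0.20 in mutant, 0.13 in control hearts), *Ccnd2* (0.24 in mutant and 0.32 in control hearts), *Ccne2* (0.37 in mutant and 0.27 in control hearts) and *Cdk4* (0.18 in mutant and 0.20 in control hearts) were not called. Quantile-normalised values were −0.03 in mutant and −0.11 in control hearts for *Ccnd1*, 0.05 in mutant and 0.12 in control hearts for *Ccnd2*, 0.13 in mutant and 0.05 in control hearts for *Ccne2* and 0.06 in mutant and 0.08 in control hearts for *Cdk4*.

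The transcription factors of the list were not called in either genotype. *E2f1*, which drives replication genes, had a log2 FC of 0.21 in mutant and 0.34 in control hearts (−0.03 in mutant and 0.11 in control hearts after quantile normalisation), and *Foxm1* one of 0.49 in mutant and 0.37 in control hearts (quantile-normalised 0.25 in mutant and 0.14 in control hearts). *Mybl2* was at 9.25, 9.44, 9.29 and 9.38 at E13.5, against 8.86, 9.03, 8.93 and 8.999 at E11.5, in mutant hearts. In control hearts *Mybl2* was at 9.26, 9.29, 9.17 and 9.29 at E13.5, against 9.31, 8.93, 9.19 and 9.37 at E11.5. The stages were apart in mutant hearts and overlapped in control hearts, and mutant hearts were low at E11.5. Its log2 FC was 0.38 ± 0.10 in mutant hearts (adjusted p = 0.00632, quantile-normalised 0.17), against 0.05 ± 0.10 in control hearts (adjusted p = 0.689, quantile-normalised −0.14). The difference of 0.33 ± 0.14 had the smallest p of the 46 genes (adjusted p = 1.00). *Mybl2*, like *Ccnd3* in control hearts above and the MCM genes, *Mki67*, *Cenpe*, *Tyms* and *Plk1* below, was singled out after its values were seen.

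None of the 9 genes of replication licensing was called in either genotype, and their signs differed. *Mcm2* to *Mcm7* encode the 6 subunits of the MCM helicase, which CDC6 and CDT1 load onto DNA before replication starts. *Mcm2*, *Mcm3* and *Mcm5* had a positive log2 FC (*Mcm3* in mutant hearts turned to −0.05 after quantile normalisation) and *Mcm4*, *Mcm6* and *Mcm7* a negative one, that of *Mcm7* being close to 0. *Mcm2* was at 11.02, 11.11, 11.06 and 11.13 at E13.5, against 10.75, 10.92, 10.71 and 10.79 at E11.5, in mutant hearts. In control hearts *Mcm2* was at 11.26, 11.07, 11.10 and 10.99 at E13.5, against 10.73, 10.60, 10.75 and 10.78 at E11.5. No heart of 1 stage reached the other stage, and the log2 FC was 0.29 ± 0.09 in mutant (adjusted p = 0.0155) and 0.39 ± 0.09 in control hearts (adjusted p = 0.00248). *Mcm4* was at 10.42, 10.36, 10.48 and 10.48 at E13.5, against 10.97, 10.85, 10.68 and 10.73 at E11.5, in mutant hearts. In control hearts *Mcm4* was at 10.64, 10.46, 10.47 and 10.36 at E13.5, against 10.72, 10.59, 10.88 and 10.97 at E11.5. Here the E13.5 hearts were the lower ones, apart from E11.5 in the mutant and overlapping through replicate 1 in the control, and the log2 FC was −0.37 ± 0.10 in mutant (adjusted p = 0.00971) and −0.30 ± 0.10 in control hearts (adjusted p = 0.0281). Values for the other subunits were 0.19 in mutant and 0.34 in control hearts for *Mcm3*, 0.32 in mutant and 0.40 in control hearts for *Mcm5*, −0.26 in mutant and −0.25 in control hearts for *Mcm6*, and −0.06 in both genotypes for *Mcm7*. After quantile normalisation *Mcm2* and *Mcm5* were at 0.05 and 0.08 in mutant hearts and 0.14 and 0.16 in control hearts, and *Mcm4* was called lower in both genotypes (−0.61 in mutant and −0.56 in control hearts). *Mcm6* was at −0.51 in mutant and −0.49 in control hearts, on either side of the threshold of 0.5. The subunits were also split by the sign of their stage change in these same hearts, which builds in a gap between the stages. The mean of *Mcm2*, *Mcm3* and *Mcm5* minus that of *Mcm4*, *Mcm6* and *Mcm7* ran from −0.16 to 0.01 in the 8 hearts at E13.5, against −0.75 to −0.41 in the 8 hearts at E11.5. This difference has no meaning as a level, since probe sets differ in brightness. Its change between the stages was looked at after the values were seen and is given with no test. *Cdt1* was at 0.39 ± 0.10 in mutant and 0.49 ± 0.10 in control hearts, whereas *Cdc6* was at −0.29 ± 0.18 in mutant and 0.01 ± 0.18 in control hearts, with the widest SE of the 46 genes. *Pcna*, the sliding clamp of DNA polymerase, was at −0.04 ± 0.12 in mutant and −0.02 ± 0.12 in control hearts, and its other probe set at −0.19 in mutant and −0.15 in control hearts. After quantile normalisation the values were −0.05 in mutant and 0.11 in control hearts for *Mcm3*, −0.29 in mutant and −0.29 in control hearts for *Mcm7*, 0.14 in mutant and 0.25 in control hearts for *Cdt1*, −0.44 in mutant and −0.11 in control hearts for *Cdc6* and −0.21 in mutant and −0.20 in control hearts for *Pcna*.

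**Figure D3:**
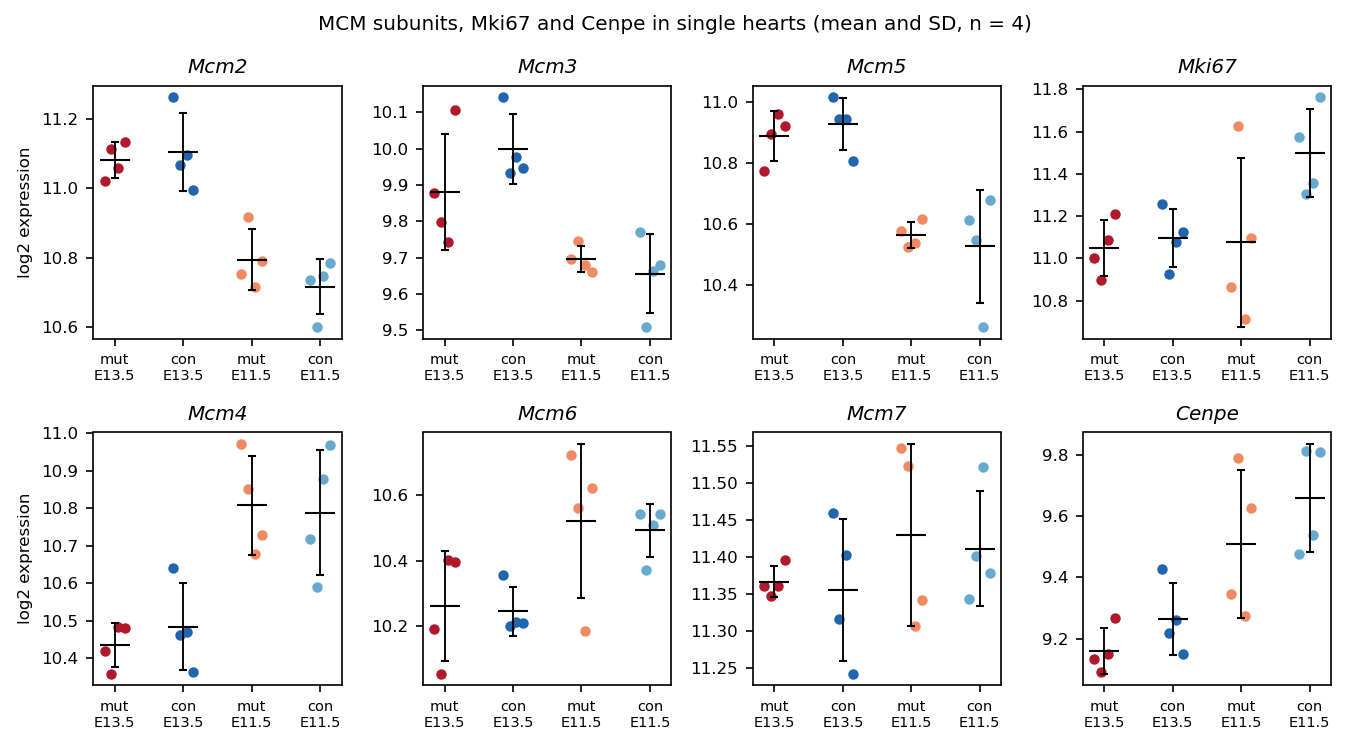
Log2 expression of the MCM subunits, *Mki67* and *Cenpe* in mutant and control hearts at E13.5 and at E11.5 (points are hearts, bars the mean and SD, n = 4 each). Axes differ between genes and do not start at 0. *Mcm2*, *Mcm3* and *Mcm5* are higher on average at E13.5 (*Mcm3* in mutant hearts not after quantile normalisation), *Mcm4*, *Mcm6* and *Cenpe* lower, and the E11.5 mutant hearts of *Mki67* spread from 10.71 to 11.63.

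Of the genes of nucleotide supply, *Rrm1*, for the large subunit of ribonucleotide reductase, had a log2 FC of 0.48 in mutant and 0.38 in control hearts, and *Rrm2*, for its small subunit, one of 0.14 in mutant and 0.24 in control hearts. Their quantile-normalised values were 0.28 in mutant and 0.15 in control hearts for *Rrm1* and −0.08 in mutant and 0.02 in control hearts for *Rrm2*. *Tyms*, for thymidylate synthase, was at 0.45 ± 0.16 in mutant hearts (adjusted p = 0.0313) and 0.06 ± 0.16 in control hearts (adjusted p = 0.766), and at 0.21 in mutant and −0.17 in control hearts after quantile normalisation. The difference between these was not past the test (0.38 ± 0.22, adjusted p = 1.00). *Tyms* spread from 9.20 to 9.92 in mutant hearts at E11.5 and from 9.61 to 10.20 in control hearts.

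Of 7 measured cyclins and kinases of mitotic entry, *Ccnb2*, *Cdk1*, *Aurka* and *Aurkb* rose in mutant hearts and *Cdk1*, *Aurka* and *Aurkb* in control hearts. *Cdk1*, the kinase that starts mitosis, was at 11.71, 11.96, 11.64 and 11.92 at E13.5, against 11.32, 11.09, 10.98 and 10.93 at E11.5, in mutant hearts. In control hearts *Cdk1* was at 11.75, 11.81, 11.60 and 11.67 at E13.5, against 11.21, 10.88, 11.23 and 11.14 at E11.5. Every E13.5 heart lay above every E11.5 heart of its genotype, with a log2 FC of 0.73 ± 0.12 in mutant (adjusted p = 0.000177, quantile-normalised 0.51) and 0.59 ± 0.12 in control hearts (adjusted p = 0.000943, quantile-normalised 0.36). *Aurkb*, for the kinase of the chromosomal passenger complex that corrects attachments to the spindle, was at 11.38, 11.55, 11.19 and 11.54 at E13.5, against 10.65, 10.64, 10.73 and 10.54 at E11.5, in mutant hearts. In control hearts *Aurkb* was at 11.44, 11.33, 11.22 and 11.43 at E13.5, against 10.77, 10.25, 10.75 and 10.67 at E11.5. The stages were again apart, and the log2 FC of 0.77 ± 0.12 in mutant (adjusted p = 0.000174) and 0.75 ± 0.12 in control hearts (adjusted p = 0.00023, quantile-normalised 0.54 in mutant and 0.51 in control hearts) passed the test in each of 27 alternatives. *Aurka*, for the kinase of the spindle poles, rose by 0.62 ± 0.11 in mutant (adjusted p = 0.000397) and 0.51 ± 0.11 in control hearts (adjusted p = 0.00167), and stood at 0.37 in mutant and 0.27 in control hearts after quantile normalisation. *Ccnb2*, for cyclin B2, rose by 0.59 ± 0.10 in mutant hearts (adjusted p = 0.000313, quantile-normalised 0.39) and stood at 0.47 ± 0.10 in control hearts (adjusted p = 0.0019, quantile-normalised 0.25). *Ccna2*, for cyclin A2, was at 0.42 in mutant and 0.41 in control hearts. *Plk1*, for a kinase that acts throughout mitosis, was not called in either genotype. It was at 11.57, 11.84, 11.59 and 11.67 at E13.5, against 11.72, 11.91, 11.93 and 11.61 at E11.5, in mutant hearts. In control hearts *Plk1* was at 11.80, 11.72, 11.75 and 11.74 at E13.5, against 11.86, 11.68, 11.74 and 11.96 at E11.5. The stages overlapped, and the log2 FC was −0.13 ± 0.10 in mutant (adjusted p = 0.326) and −0.06 ± 0.10 in control hearts (adjusted p = 0.667, quantile-normalised −0.34 in mutant and −0.28 in control hearts). *Cdc25c*, for a phosphatase that activates CDK1, was at −0.07 in both. Quantile normalisation gave 0.22 in mutant and 0.20 in control hearts for *Ccna2* and −0.25 in mutant and −0.24 in control hearts for *Cdc25c*.

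Checkpoint and centromere genes were uneven. *Cenpa*, for the histone H3 variant of centromeres, rose in mutant hearts by 0.72 ± 0.13 (adjusted p = 0.00057, quantile-normalised 0.47) and reached 0.50 ± 0.13 in control hearts, just under the threshold (adjusted p = 0.00744, quantile-normalised 0.26). *Cenpe*, for a kinesin that carries chromosomes to the spindle equator, was at 9.13, 9.09, 9.15 and 9.27 at E13.5, against 9.35, 9.79, 9.27 and 9.63 at E11.5, in mutant hearts. In control hearts *Cenpe* was at 9.43, 9.22, 9.26 and 9.15 at E13.5, against 9.48, 9.81, 9.54 and 9.81 at E11.5. All E13.5 hearts were below all E11.5 hearts of their genotype, though the closest mutant hearts were equal to the second decimal. The log2 FC of *Cenpe* was −0.35 ± 0.12 in mutant (adjusted p = 0.0342) and −0.40 ± 0.12 in control hearts (adjusted p = 0.0187), and after quantile normalisation it was called lower in both (−0.56 in mutant and −0.61 in control hearts). The checkpoint kinase gene *Bub1b* was at 0.36 in mutant and 0.49 in control hearts, and its relative *Bub1* at −0.02 in mutant and 0.06 in control hearts. *Birc5*, for survivin, was at 0.13 in mutant and 0.22 in control hearts, *Cenpf* at 0.16 in mutant and 0.04 in control hearts, and *Cdc20*, for an activator of the anaphase-promoting complex, at 0.19 in mutant and 0.09 in control hearts. Quantile normalisation turned the sign of *Cenpf* and *Cdc20* in both genotypes, of *Birc5* in mutant and of *Bub1* in control hearts, and gave 0.11 in mutant and 0.25 in control hearts for *Bub1b*, −0.25 in mutant and −0.18 in control hearts for *Bub1*, −0.08 in mutant and 0.02 in control hearts for *Birc5*, −0.05 in mutant and −0.16 in control hearts for *Cenpf* and −0.06 in mutant and −0.15 in control hearts for *Cdc20*.

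Among the spindle genes *Nusap1* and *Kif11* rose in both genotypes. *Nusap1*, for a protein that bundles spindle microtubules, was at 10.90, 11.20, 11.19 and 11.27 at E13.5, against 10.07, 10.22, 10.03 and 10.01 at E11.5, in mutant hearts. In control hearts *Nusap1* was at 10.97, 11.16, 10.91 and 11.22 at E13.5, against 10.49, 9.80, 10.40 and 10.60 at E11.5. The stages were apart, and control E11.5 replicate 2 was the lowest heart. The log2 FC of 1.06 ± 0.15 in mutant hearts (adjusted p = 7.26e-05, quantile-normalised 0.82) was the largest of the 46 genes, and that in control hearts was 0.74 ± 0.15 (adjusted p = 0.00127, quantile-normalised 0.50). *Kif11*, for the kinesin that pushes spindle poles apart, was at 11.14, 10.98, 11.003 and 11.14 at E13.5, against 10.52, 10.50, 10.29 and 10.54 at E11.5, in mutant hearts. In control hearts *Kif11* was at 11.32, 11.20, 11.28 and 11.18 at E13.5, against 10.38, 10.40, 10.79 and 10.76 at E11.5. No values of the 2 stages met, and the log2 FC was 0.60 ± 0.11 in mutant (adjusted p = 0.000559, quantile-normalised 0.36) and 0.66 ± 0.11 in control hearts (adjusted p = 0.000263, quantile-normalised 0.43). *Kif20a*, for a kinesin of cytokinesis, was at 0.45 in mutant and 0.48 in control hearts, and *Tpx2*, which activates Aurora A at the spindle, at 0.32 in mutant and 0.42 in control hearts. *Kif23* (0.16 in mutant and 0.09 in control hearts) and *Top2a* (0.02 in mutant and 0.14 in control hearts), for a kinesin of the midbody and for topoisomerase IIα, were not called under any of 4 scalings. Quantile-normalised, the values were 0.21 in mutant and 0.24 in control hearts for *Kif20a*, 0.07 in mutant and 0.18 in control hearts for *Tpx2*, −0.09 in mutant and −0.15 in control hearts for *Kif23* and −0.20 in mutant and −0.10 in control hearts for *Top2a*.

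*Mki67*, which encodes the antigen Ki-67 used to mark dividing cells, was not called with the deposited values. It was at 11.001, 10.90, 11.09 and 11.21 at E13.5, against 10.87, 11.63, 10.71 and 11.10 at E11.5, in mutant hearts. In control hearts *Mki67* was at 11.26, 10.93, 11.08 and 11.13 at E13.5, against 11.57, 11.30, 11.36 and 11.76 at E11.5. All control hearts at E13.5 were below all control hearts at E11.5, while the E11.5 mutant hearts spread on both sides of the E13.5 ones. The log2 FC was −0.03 ± 0.17 in mutant (adjusted p = 0.912) and −0.40 ± 0.17 in control hearts (adjusted p = 0.0672), and quantile-normalised −0.26 in mutant and −0.64 in control hearts, where it was called lower (adjusted p = 0.00632). Median centring gave 0.03 in mutant hearts. The stage change of *Mki67* did not differ between the genotypes past the test (0.38 ± 0.24, adjusted p = 1.00).

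The measured CDK inhibitors went in opposite directions without being called. *Cdkn1b*, for p27, was at 10.87, 10.72, 10.62 and 10.84 at E13.5, against 10.40, 10.36, 10.25 and 10.46 at E11.5, in mutant hearts. In control hearts *Cdkn1b* was at 10.65, 10.76, 10.59 and 10.75 at E13.5, against 10.26, 9.97, 10.34 and 10.50 at E11.5. The E13.5 hearts were the higher ones throughout, with a log2 FC of 0.39 ± 0.11 in mutant (adjusted p = 0.0104) and 0.42 ± 0.11 in control hearts (adjusted p = 0.0067), and 0.15 in mutant and 0.18 in control hearts after quantile normalisation. The other, dimmer probe set of *Cdkn1b* was at 0.27 in mutant (limma adjusted p = 0.302) and 0.52 in control hearts (adjusted p = 0.0517). *Cdkn1c*, for p57, an imprinted inhibitor, was at 11.69, 11.77, 11.71 and 11.59 at E13.5, against 11.92, 12.14, 11.81 and 11.72 at E11.5, in mutant hearts. In control hearts *Cdkn1c* was at 11.60, 11.80, 11.64 and 11.75 at E13.5, against 11.99, 11.99, 12.06 and 11.95 at E11.5. Control hearts of the stages were apart and mutant hearts overlapped. The log2 FC of *Cdkn1c* was −0.21 ± 0.10 in mutant (adjusted p = 0.0998) and −0.30 ± 0.10 in control hearts (adjusted p = 0.0214), and after quantile normalisation it was −0.41 in mutant hearts and −0.52 in control hearts, where it was called lower.

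The stage changes in mutant and in control hearts, which rest on separate hearts, were alike over the 46 genes. Pearson's r was 0.88 and Spearman's rho 0.89 across genes, and 44 of 46 had the same sign (0.87, 0.89 and 40 after quantile normalisation). Genes are not independent replicates, and both sets share the array platform and the difference in spread between the stages. No gene passed the test of a stage change that differs by genotype (adjusted p under 0.05 for 0 of 46 and 0% of all genes), and 1 of 46, *Mybl2*, had an unadjusted p under 0.05, beside 3.96% of all genes.

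**Figure D4:**
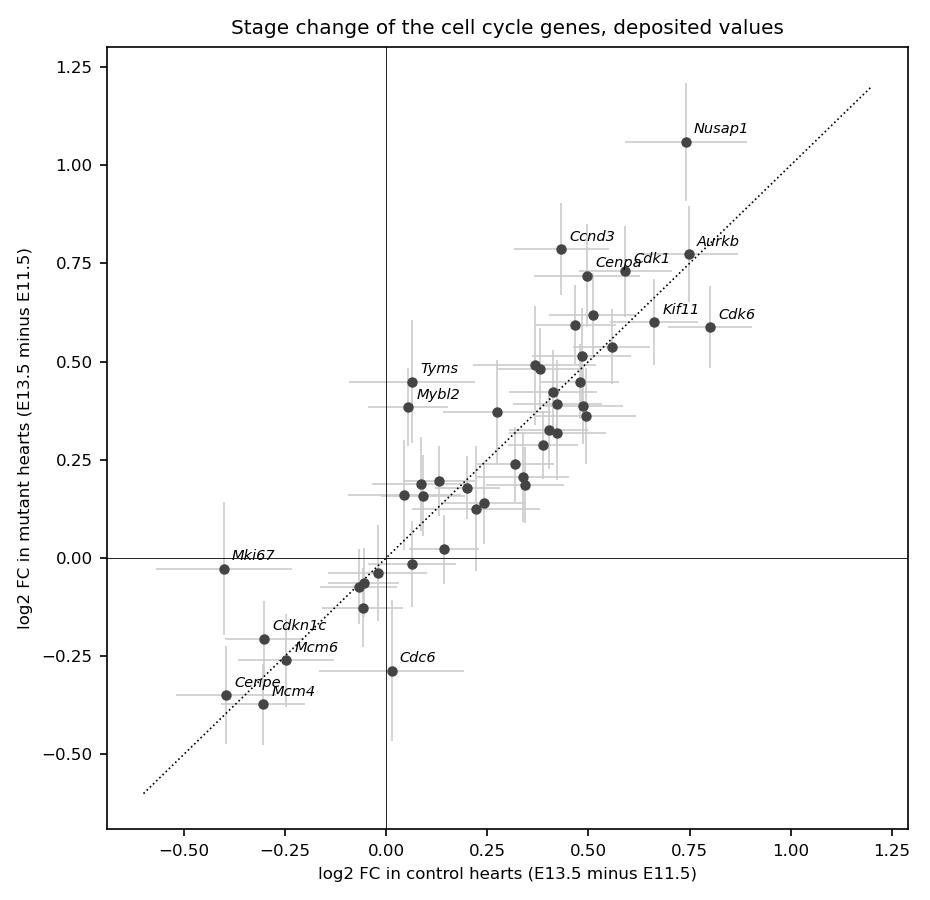
Stage change (log2 FC, E13.5 minus E11.5) of the 46 genes in mutant hearts (vertical) against control hearts (horizontal), deposited values. Bars are SE, and the dotted line marks equal change. Most points lie near the line, from *Cenpe* and *Mcm4* at the lower left to *Nusap1* at the upper right.

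Loss of *Chd7* in the mesoderm moved none of the 46 genes past the test. At E13.5 0 of 46 were called, beside 0.0451% of all genes, and at E11.5 0 of 46, beside 0.251%. An unadjusted limma p under 0.05 was reached by 0 of 46 at E13.5 (3.94% of all genes) and by 3 of 46, or 6.52%, at E11.5 (9.34% of all genes). The median log2 FC (mutant minus control) was −0.01 at E13.5 and 0.01 at E11.5, over ranges of −0.18 to 0.24 and −0.42 to 0.26, and −0.02 and −0.01 after quantile normalisation. The 95% interval of a gene had a median half-width of 0.23. Over the 46 genes the intervals reached from −0.49 to 0.52 at E13.5 and from −0.78 to 0.64 at E11.5, and a p that misses the threshold does not show equal levels.

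At E13.5 the smallest p belonged to *Cenpa*, at 11.09, 11.01, 11.28 and 10.92 in mutant hearts, against 10.80, 10.93, 10.85 and 10.77 in control hearts. The groups overlapped through the lowest mutant and highest control heart, and the log2 FC was 0.24 ± 0.13 (adjusted p = 1.00, 95% interval −0.04 to 0.52). *Kif11* was at 11.14, 10.98, 11.003 and 11.14 in mutant hearts, against 11.32, 11.20, 11.28 and 11.18 in control hearts. Its groups did not overlap, and the log2 FC was −0.18 ± 0.11 (adjusted p = 1.00). *Ccne1* (0.18), *Tpx2* (−0.16), *Mcm3* (−0.12) and *E2f1* (−0.13) followed, all with overlapping groups and an adjusted p of 1.00. *Cdk4*, with a larger p, was also apart, at 13.13 to 13.16 in mutant hearts, against 13.03 to 13.11 in control hearts (log2 FC 0.06). How often the genotypes were apart over all genes was not counted.

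At E11.5 the smallest p belonged to *Mki67*. Its level was 10.87, 11.63, 10.71 and 11.10 in mutant hearts, against 11.57, 11.30, 11.36 and 11.76 in control hearts. Mutant replicate 2 lay among the control hearts, and the other 3 mutant hearts lay below all of them, with a log2 FC of −0.42 ± 0.17 (adjusted p = 0.427, 95% interval −0.78 to −0.07). *Mybl2* was at 8.86, 9.03, 8.93 and 8.999 in mutant hearts, against 9.31, 8.93, 9.19 and 9.37 in control hearts, with a log2 FC of −0.24 ± 0.10 (adjusted p = 0.446). *Cdk6* was at 9.64, 9.42, 9.47 and 9.62 in mutant hearts, against 9.17, 9.47, 9.14 and 9.41 in control hearts, with one of 0.24 ± 0.10 (adjusted p = 0.479). All 3 overlapped between the genotypes. *Ccnd3* (−0.23), *Cdt1* (0.18) and *Nusap1* (−0.24) had adjusted p values of 0.567 to 0.668. Single hearts moved these: without control E11.5 replicate 4 *Ccnd3* was at −0.11 and *Nusap1* at −0.15, without control E11.5 replicate 2 *Nusap1* was at −0.41, and without mutant E11.5 replicate 4 *Cdt1* was at 0.12, with adjusted p values of 0.205 to 0.812. Erythroid markers moved beside these at E11.5, with 10 of 10 lower in mutant hearts on average (median log2 FC −0.35) and 0 called, and their part was not tested. By role, the effect at E11.5 was positive in 7 of 8 G1 genes, 1 of 3 transcription factors, 9 of 9 licensing genes (8 of 9 after quantile normalisation), 1 of 3 nucleotide genes, 1 of 7 mitotic entry genes, 3 of 7 checkpoint and centromere genes, 1 of 7 spindle and chromatin genes and 1 of 2 CDK inhibitors. At E13.5 it was positive in 6 of 8, 1 of 3, 4 of 9, 2 of 3, 4 of 7, 2 of 7, 2 of 7 and 1 of 2 in the same order of roles. No gene of any role was called, and these counts have no test.

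**Figure D5:**
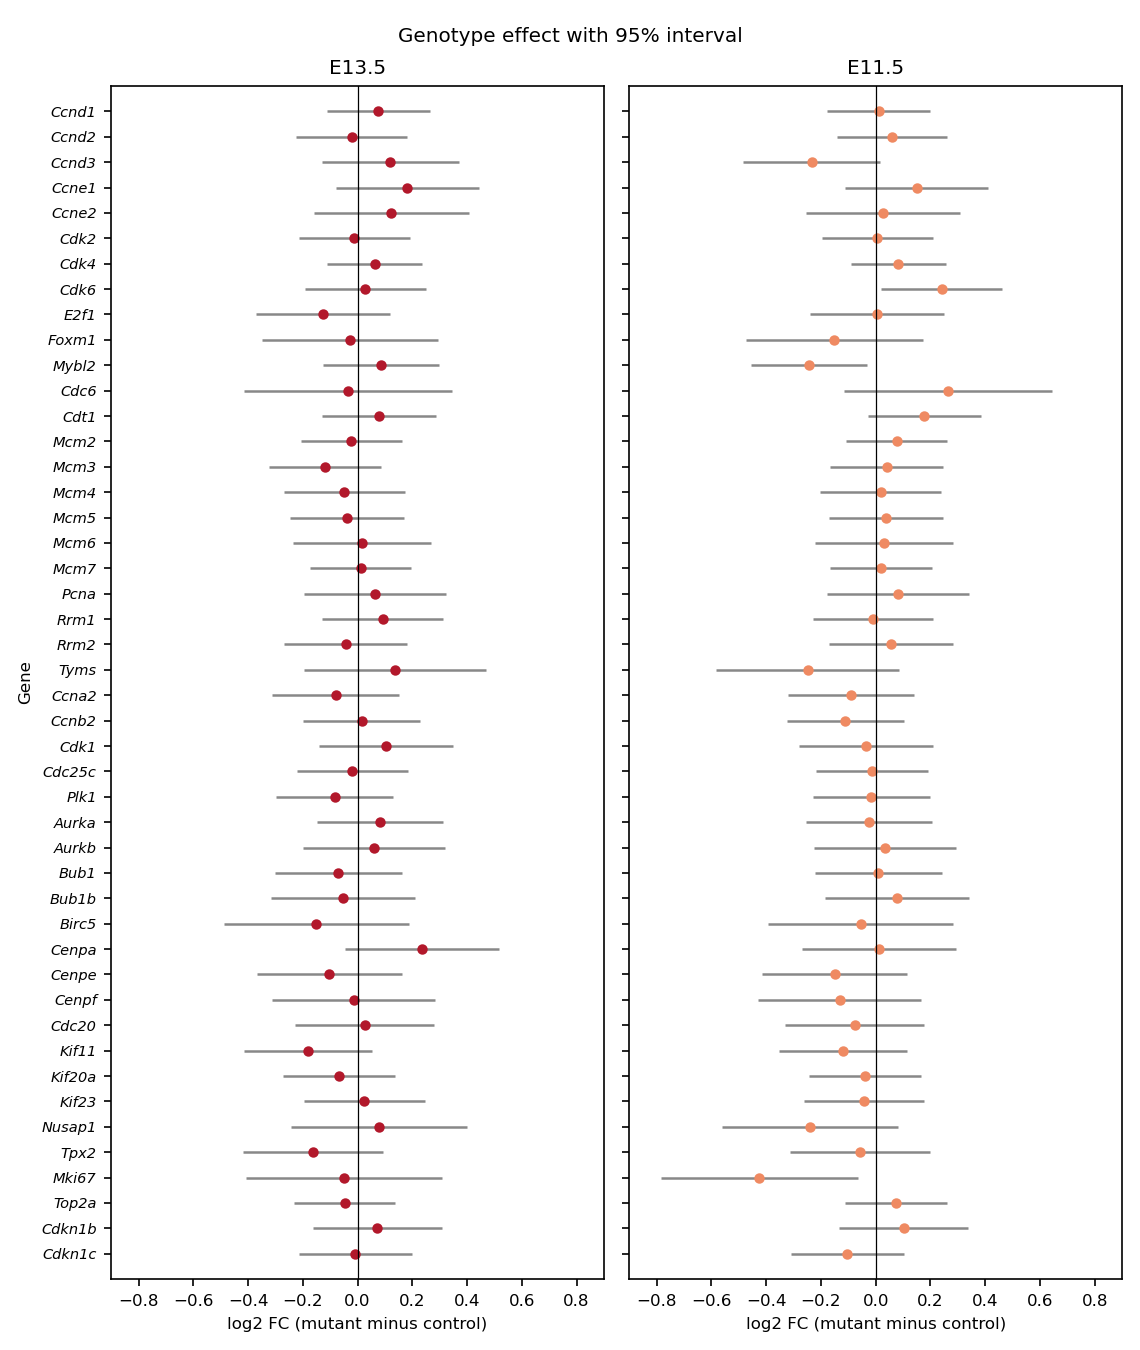
Genotype effect (log2 FC, mutant minus control) of the 46 genes at E13.5 (left) and E11.5 (right), with 95% intervals from limma, genes in order of role. At E13.5 every interval spans 0. At E11.5 those of *Mki67* and *Mybl2* lie below 0 and that of *Cdk6* above it, with none past the adjusted test.

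Hearts of 1 group varied in the cell cycle genes as a whole. The median SD over the 46 genes was 0.10 in mutant and 0.10 in control hearts at E13.5, against 0.14 in mutant and 0.16 in control hearts at E11.5. Over all genes it was 0.16 in mutant and 0.14 in control hearts at E13.5, against 0.22 in mutant and 0.20 in control hearts at E11.5. Control E11.5 replicate 4 held the highest value of its stage for 17 of 46 genes and replicate 2 the lowest for 18, and at E13.5 control replicate 1 held the highest for 16. The erythroid median of these hearts was 11.54, 10.23 and 11.41, which are the highest and lowest of E11.5 and the highest of E13.5. Control E11.5 replicates 4 and 2 also had the widest and the narrowest spread of values within an array at their stage (SD 2.265 and 2.177). Control E13.5 replicate 1, at 2.390, was not at either end of its stage. The parts of the erythroid median and of the array spread in the cell cycle values were not tested. Highest and lowest hearts were not counted over all genes. Without control E11.5 replicate 4 the genes called higher in control hearts numbered 15, and without replicate 2 there were 6 and the median log2 FC was 0.25.

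Further genes of the cell cycle, in 9 lists, were read in the same way. Their median log2 FC was 0.21 to 0.42 in mutant and 0.18 to 0.31 in control hearts, leaving out the 4 INK4 genes. Over all genes with a mean from 8.23 to 13.02 the median was 0.27 in mutant and 0.26 in control hearts. Quantile-normalised, the median was −0.001 in mutant and −0.009 in control hearts for the replication fork and −0.03 in both for condensation and cohesion. In mutant and control hearts it was 0.03 and 0.08 for nucleotide genes and 0.12 and 0.05 for the kinetochore and checkpoint list. It was 0.10 and 0.06 for spindle and cytokinesis and 0.18 and 0.07 for kinase control and ubiquitin. All genes named from the lists kept their sign after quantile normalisation. The counts of these lists stand beside 16.8% higher and 12.8% lower over all genes in mutant hearts and 16.5% and 12.3% in control hearts. After quantile normalisation those shares of all genes were 11.6% and 9.73% in mutant and 11.4% and 9.56% in control hearts. Of 34 genes of the replication fork, 6 were called higher and 0 lower in mutant hearts, and likewise 6 and 0 in control hearts (quantile-normalised 3 and 0 in mutant, 2 and 0 in control hearts). *Rfc4*, for a subunit of the clamp loader, rose by 1.48 in mutant (adjusted p = 3.64e-08) and 1.52 in control hearts (adjusted p = 3.1e-08), and by 1.24 in mutant and 1.29 in control hearts after quantile normalisation. *Gins1* rose by 0.76 in mutant and 0.99 in control hearts and *Pola2* by 0.68 in mutant and 0.61 in control hearts (quantile-normalised 0.59 in mutant and 0.84 in control hearts for *Gins1* and 0.44 in mutant and 0.38 in control hearts for *Pola2*). Of 9 nucleotide genes, 2 were higher and 0 lower in each genotype, but after quantile normalisation 0 were higher and 2 lower in mutant hearts and 0 and 0 in control hearts. The kinetochore and checkpoint list of 21 genes had 8 higher and 0 lower in mutant hearts, against 7 and 1 in control hearts, with *Mad2l1*, for a checkpoint protein, at 0.62 in mutant and 0.66 in control hearts. Quantile-normalised, the counts were 2 and 0 in mutant and 2 and 2 in control hearts. Of 26 spindle and cytokinesis genes 8 were higher and 1 lower in mutant hearts, and 4 and 2 in control hearts (quantile-normalised 5 and 2 in mutant, 3 and 2 in control hearts). *Racgap1*, part of the centralspindlin complex with KIF23, rose by 1.10 in mutant and 1.08 in control hearts (0.86 in mutant and 0.85 in control hearts after quantile normalisation). The condensation and cohesion list of 18 genes had 4 higher in mutant and 5 in control hearts (1 in each after quantile normalisation) and 0 lower, led by *Cdca5*, for sororin, at 0.99 in mutant and 0.89 in control hearts. Of 19 genes of kinase control and ubiquitin, 5 were higher and 1 lower in mutant hearts, and 6 and 1 in control hearts, with *Ube2s* at 0.82 in mutant and 0.68 in control hearts. After quantile normalisation 1 was higher and 1 lower in mutant hearts, and 0 and 2 in control hearts. Quantile-normalised values were 0.39 in mutant and 0.42 in control hearts for *Mad2l1*, 0.80 in mutant and 0.71 in control hearts for *Cdca5* and 0.60 in mutant and 0.45 in control hearts for *Ube2s*. The gene that fell with the deposited values was *Fbxo5*, for the inhibitor EMI1 of the anaphase-promoting complex (−0.55 in mutant and −0.56 in control hearts, and −0.79 in mutant and −0.80 in control hearts after quantile normalisation).

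The list of 19 E2F, RB and DREAM genes had 6 higher and 1 lower in mutant hearts, and 7 and 2 in control hearts (quantile-normalised 5 and 4 in mutant, 3 and 5 in control hearts). *E2f6*, a repressor of the family, rose by 1.18 in mutant (adjusted p = 3.79e-05) and 1.51 in control hearts (adjusted p = 4.95e-06), and *E2f5* by 0.86 in both (quantile-normalised 0.95 in mutant and 1.29 in control hearts for *E2f6* and 0.68 in mutant and 0.71 in control hearts for *E2f5*). Of 4 INK4 inhibitors of CDK4 and CDK6, 1 was higher in mutant and 0 in control hearts, and that was *Cdkn2c* (0.52 in mutant and 0.25 in control hearts, quantile-normalised 0.34 and not called in mutant and 0.09 in control hearts). Of 18 genes of the p53 pathway, 4 were higher and 1 lower in mutant hearts, and 5 and 1 in control hearts (quantile-normalised 1 and 1 in mutant, 1 and 2 in control hearts). *Btg2*, an antiproliferative gene, was the one lower (−0.66 in mutant and −0.81 in control hearts). Between the genotypes none of the other cell cycle lists held a called gene, apart from the p53 list. There *Perp*, for a membrane protein of desmosomes, fell in mutant hearts at E11.5 by 0.65 (adjusted p = 0.045), at 10.05, 9.99, 10.02 and 9.87 in mutant hearts, against 10.65, 10.53, 10.62 and 10.72 in control hearts. At E13.5 *Perp* had a log2 FC of −0.67 (adjusted p = 0.0803). Another gene singled out after its values were seen was *E2f2*. Its genotype effect at E11.5 was −0.91 (adjusted p = 0.0691), at 8.16, 8.70, 8.27 and 8.11 in mutant hearts, against 9.27, 8.65, 9.14 and 9.82 in control hearts. The highest and lowest control hearts for *E2f2* were those for the erythroid median, and also those with the widest and narrowest array spread at E11.5. The parts of both in the *E2f2* values were not tested.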

How the data were processed

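RNA of 16 single embryonic hearts was hybridised to Affymetrix Mouse Gene 1.0 ST arrays, and the authors deposited log2 values summarised by RMA per probe set. Whether the stages were normalised together is not given in the sources used here. Of 34760 probe sets, 21640 named 1 gene, 1321 several and 11799 none. Each of the 19937 genes was read from its probe set with the highest mean, and among the cell cycle genes only *Pcna*, *Top2a* and *Cdkn1b* had a second one. All 34760 probe sets were fitted with limma 3.58.1 in R 4.3.3 (lmFit and eBayes on group means of all 4 groups, 12 residual degrees of freedom). Benjamini-Hochberg adjustment was over all probe sets of a comparison. The number of arrays limits the precision. Nothing states that the hearts come from separate litters, so the p-values measure the spread between these hearts. Stage comparisons are E13.5 minus E11.5, genotype comparisons mutant minus control, and the interaction is the difference of the stage changes, mutant minus control.

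Fold changes with tests were given for every cell cycle gene called in a stage comparison (at most 12 per direction), for the CDK inhibitors and for the 6 smallest p in each genotype comparison. Genes of a further list named for a stage change were among the 3 with the smallest p in control hearts. Not all of these were named, and most are given without a p. The genes and lists were chosen with earlier results of these data known. Alternatives were quantile normalisation, cyclic loess and median centring over all arrays, no fold threshold, array weights, a filter on dim genes, fits to the compared groups, the replicate number as a block, and each heart left out. Python 3.11.15 with matplotlib 3.10.9 made the plots.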

Additional observations from a re-analysis of the deposited data

Results flagged for a closer look

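Among the 184 sets of 4 hearts (46 genes in 4 groups), 5 held a heart whose gap to the nearest other was above Dixon's 95% critical value for the ratio of gap to range, where chance gives about 5% of sets. In mutant hearts at E11.5, *Bub1b* was at 10.36 in replicate 3, with the other 3 hearts at 10.20 to 10.21, *Kif11* was at 10.29 in replicate 3, with the others at 10.50 to 10.54, and *Cdc20* was at 9.85 in replicate 4, with the others at 10.34 to 10.37. These replicates are the mutant hearts that stood apart over all genes. In control hearts at E13.5, *Mcm6* was at 10.36 in replicate 1, which also stood apart over all genes, with the others at 10.20 to 10.21. *Rrm2* was at 11.96 in control E13.5 replicate 4, with the others at 11.72 to 11.75.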

How the results depend on the processing

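In mutant hearts the genes called higher at E13.5 numbered 4 after quantile normalisation, 4 after cyclic loess and 15 after median centring (11 with deposited values). Those called lower numbered 3 after quantile normalisation and 3 after loess (0), and the median log2 FC was 0.064 and 0.058 (0.30). In control hearts the genes called higher numbered 3 after quantile normalisation, 2 after cyclic loess and 13 after median centring (7), those called lower 4 after quantile normalisation and 4 after loess (0), and the median was 0.11 and 0.091 (0.33). With no fold threshold 24 were higher and 2 lower in mutant hearts, and 23 and 3 in control hearts.

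Leaving out each heart gave 10 to 13 genes called higher in mutant hearts and 6 to 15 in control hearts, with medians of 0.26 to 0.32 and 0.25 to 0.35. The highest control count came without control E11.5 replicate 4, and the lowest count and median without control E11.5 replicate 2. Without the 3 hearts that stood apart, a choice made after seeing the data, 11 and 8 were called higher. The genotype comparisons and the interaction had 0 called genes in every alternative run, and the genotype medians stayed between −0.02 and 0.02 at E13.5 and between −0.06 and 0.03 at E11.5 with each heart left out. *Aurka* in control hearts was past the threshold in 20 of 27 alternatives and *Ccne1* in mutant hearts in 19 of 27.

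Of 1564 values of named genes under alternatives, 11 changed sign. For the stage change of *Mybl2* in control hearts (0.05), it was −0.14 after quantile normalisation, −0.17 after loess and −0.035 without control E11.5 replicate 2, in a range of −0.035 to 0.11 with each heart left out. For *Tyms* in control hearts (0.06) it was −0.17, −0.18 and −0.021, in a range of −0.021 to 0.17. For *Mcm3* in mutant hearts (0.19) it was −0.050 and −0.065 after quantile and loess normalisation. For *Mki67* in mutant hearts (−0.03) it was 0.028 after median centring, 0.16 without mutant E11.5 replicate 2 and 0.023 without mutant E13.5 replicate 2, in a range of −0.15 to 0.16. Beyond the scaling itself, the cause was not tested.

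The labels do not say whether same-numbered mutant and control hearts form pairs. Their deviations correlated at −0.05 to 0.04, which cannot exclude a shared litter or batch. With the replicate number as a block, 11 genes were called higher in mutant hearts and 9 in control hearts, and the medians were 0.30 and 0.32. The interaction was not run with only the compared groups, since it uses all of them, or without the fold threshold, since 0 genes passed the adjusted p.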
